A study of Mus musculus with 8 samples.

Results

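Hearts of wild-type (WT) mice 1 day after myocardial infarction (MI) were compared with hearts of sham-operated WT mice across 19938 genes. The comparison rests on 4 of the 8 arrays of the series, chosen by their genotype and condition labels: 2 arrays of WT MI and 2 of WT sham. Each array's group follows the labels alone. Total RNA of mouse hearts was labelled as biotin cRNA and read on an Affymetrix Mouse Gene ST array. In the MI group the left coronary artery had been tied off permanently and RNA was taken 1 day later. How long after surgery the sham hearts were taken is not given in the labels. The other 4 arrays (2 sham, 2 MI) came from mice lacking MAFbx (KO), a muscle ubiquitin ligase also called atrogin-1 and encoded by Fbxo32, and the series title names cardiac rupture after infarction as its subject. Strain, sex, age and the number of animals behind an array are not given in the labels, so p-values rest on sample-to-sample spread alone, and that spread may be technical.

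Permanent ligation stops blood flow to part of the ventricle, and the muscle downstream of the tie dies within hours. Dying cells release molecules that pattern recognition receptors detect, and resident cells answer with cytokines and chemokines that draw first neutrophils and then monocytes into the tissue. The surviving muscle next to the lesion carries more load, changes its metabolism and its electrical properties, and the lost tissue is later replaced by scar made by fibroblasts.

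Values are log2 expression levels, in which a difference of 1 is a 2-fold difference, and each gene is given by its probe with the highest mean over the 8 arrays. Gene means had a 10th percentile of 3.045, a median of 5.798 and a 90th percentile of 8.979, so a level near 3 is at the low end of the array and a fold from or to such a level is uncertain. Array medians lay between 5.004 and 5.253. The first principal component held 73.9% of the variance and placed both WT sham arrays at -40.1 and the WT MI arrays at 44.3 and 47.6. On the second, with 8.56%, WT MI replicate 2 lay at -20.2 and the other WT arrays between 0.1 and 0.6. Heart tissue was borne out by the levels of 21 ventricular cardiomyocyte markers, whose mean was 12.16 and 12.19 in the sham arrays and 11.83 and 11.82 in the MI arrays, above the 90th percentile of genes. Fbxo32 had levels of 8.76 and 8.79 in WT sham hearts and 8.35 and 8.21 in WT MI hearts (log2 fold change -0.49, SE 0.18, limma adjusted p = 0.0662), short of the threshold.

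A gene is said to have risen or fallen where its limma adjusted p was under 0.05 over all 19938 genes, from 2 arrays against 2 (SE is the model's standard error). By that rule 2457 genes rose (12.3%) and 3152 fell (15.8%), 5609 in all (28.1%). The median log2 fold change of all genes was 0.04. Of the genes called, 773 rose and 897 fell by at least 2-fold, 220 rose and 58 fell by at least 4-fold, and 80 rose and 5 fell by at least 8-fold. The far end was therefore mostly made of rises, and 61 of the 80 started from a sham mean under the median gene. Among the 9276 genes above the median in both WT groups, 1434 rose and 2436 fell. The 4 arrays separated the conditions without overlap in 13284 genes (66.6%), including all 5609 that were called. Where called genes are said below to separate the groups, that held for every called gene and is no added support. The balance of directions moved with the scaling: rises were 43.8% of the calls as deposited, 33.6% after median centring (1580 rose, 3127 fell) and 50.2% after cyclic loess (2854 rose, 2827 fell).

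**Figure D1:**
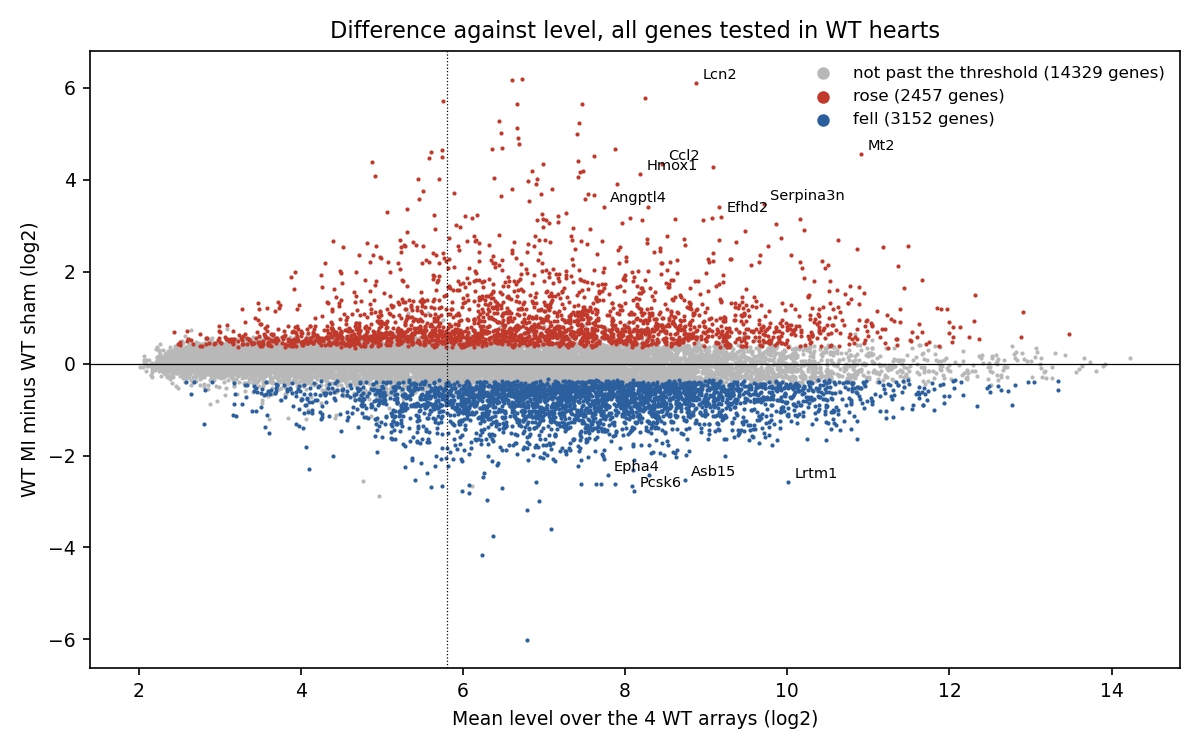
Each point is 1 of the 19938 genes, with its mean log2 level over the 4 WT arrays on the horizontal axis and WT MI minus WT sham (log2) on the vertical axis; red points rose (2457), blue points fell (3152), and the dotted line marks the median gene (5.798). Rises reach farther from 0 than falls, and labels name some of the genes with the largest differences among those above the median in both groups.

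The chemokines of the CXC group and the metallothioneins were among the largest rises, and the DNA just before their start sites is shown because it holds short sequences that these genes are known for. NF-kappaB, the transcription factor activated by pattern receptors and interleukin-1, binds kappaB sites, and the metal-sensing factor MTF1 binds metal response elements. Each window is the 250 bases before the annotated start, taken as the one farthest upstream where a gene has several. The windows are on the + strand of mouse assembly GRCm38.p6, credited to RefSeq, with matches in capitals. Positions are counted from that start, and sequence before other starts of a gene was not searched separately. Cxcl1 (chr5:90890995-90891244), Cxcl2 (chr5:90903649-90903898) and Cxcl3 (chr5:90785851-90786100) were searched on both strands for a kappaB site, taken as 3 Gs, any 2 bases, 3 Ts and 2 Cs. Mt1 (chr8:94178839-94179088) and Mt2 (chr8:94172368-94172617) were searched on both strands for a metal response element, TGCACNC or TGCGCNC, where N is any base.
Cxcl1: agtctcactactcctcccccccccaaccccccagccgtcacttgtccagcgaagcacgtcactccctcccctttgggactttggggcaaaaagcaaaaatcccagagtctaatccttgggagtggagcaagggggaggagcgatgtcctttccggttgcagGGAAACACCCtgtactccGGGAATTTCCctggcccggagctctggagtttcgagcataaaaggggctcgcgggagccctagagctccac
Cxcl2: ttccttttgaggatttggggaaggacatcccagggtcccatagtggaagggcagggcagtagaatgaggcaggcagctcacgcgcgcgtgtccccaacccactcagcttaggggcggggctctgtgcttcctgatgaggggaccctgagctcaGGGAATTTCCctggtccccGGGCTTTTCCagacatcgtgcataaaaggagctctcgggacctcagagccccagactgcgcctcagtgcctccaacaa
Cxcl3: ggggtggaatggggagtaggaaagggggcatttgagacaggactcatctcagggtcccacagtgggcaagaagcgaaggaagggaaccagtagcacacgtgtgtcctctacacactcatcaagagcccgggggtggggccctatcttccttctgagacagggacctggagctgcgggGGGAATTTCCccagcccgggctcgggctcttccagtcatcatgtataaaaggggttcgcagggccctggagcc
Mt1: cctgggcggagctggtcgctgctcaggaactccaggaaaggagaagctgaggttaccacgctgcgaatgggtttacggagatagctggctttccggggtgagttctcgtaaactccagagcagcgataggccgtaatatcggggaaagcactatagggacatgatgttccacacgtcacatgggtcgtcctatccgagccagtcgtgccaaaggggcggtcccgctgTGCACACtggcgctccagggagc
Mt2: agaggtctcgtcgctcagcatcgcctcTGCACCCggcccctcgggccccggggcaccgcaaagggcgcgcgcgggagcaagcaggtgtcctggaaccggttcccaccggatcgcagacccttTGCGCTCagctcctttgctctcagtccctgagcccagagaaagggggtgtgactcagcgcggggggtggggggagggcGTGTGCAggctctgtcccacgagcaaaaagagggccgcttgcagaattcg
The kappaB matches began 89 and 71 bases before the start in Cxcl1, 97 and 78 bases before it in Cxcl2, and 73 bases before it in Cxcl3. Of 15614 promoters of tested genes of the same length, 1.31% held such a match, against 1.79% of the promoters of genes that rose, 1.56% of those of genes that fell and 3 of the 11 CXC chemokine promoters that could be matched. Metal response elements were common, in 25.6% of promoters, 26.3% of those of genes that rose and 32.4% of those of genes that fell. They began 23 bases before the start in Mt1 and 223, 128 and 50 bases before it in Mt2. These are matches of letters, and binding was not measured.

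Secreted and stress proteins led the rises among genes above the median gene in both groups. Lcn2, a neutrophil and acute phase protein that binds bacterial iron carriers, read 5.59 and 6.05 in the sham arrays and 11.90 and 11.95 in the MI arrays, a 69.1-fold rise (log2 fold change 6.11, SE 0.18, limma adjusted p = 1.2e-07). Mt2, a metallothionein that buffers zinc and copper, read 8.74 and 8.52 against 13.08 and 13.31 (23.7-fold, log2 fold change 4.57, SE 0.14, adjusted p = 1.2e-07). Its neighbour Mt1 read 8.76 and 8.75 against 11.53 and 11.78 (7.45-fold). In all 3 genes the arrays of a group lay close together and the groups were far apart. Hmox1, haem oxygenase, which breaks down haem released from damaged cells, read 6.39 and 5.85 against 10.04 and 10.45 (17.4-fold, adjusted p = 1.2e-06). Serpina3n, an acute phase protease inhibitor, read 7.90 and 8.05 against 11.46 and 11.43 (11.1-fold). Hbegf, a growth factor of the EGF family, read 7.31 and 7.61 against 10.77 and 10.96 (10.6-fold). Both stood apart in all 4 arrays. Ptgs2, the inducible cyclooxygenase that starts prostaglandin synthesis, read 5.96 and 5.93 against 9.89 and 9.84 (15.1-fold). Angptl4, which inhibits lipoprotein lipase, rose 10.7-fold with a wider error (log2 fold change 3.42, SE 0.39, adjusted p = 0.000208), and its groups did not overlap. Timp1, the inhibitor of matrix metalloproteinases, rose by 5.79 (SE 0.23) from below the median gene, to 11.38 and 10.90.

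**Figure D2:**
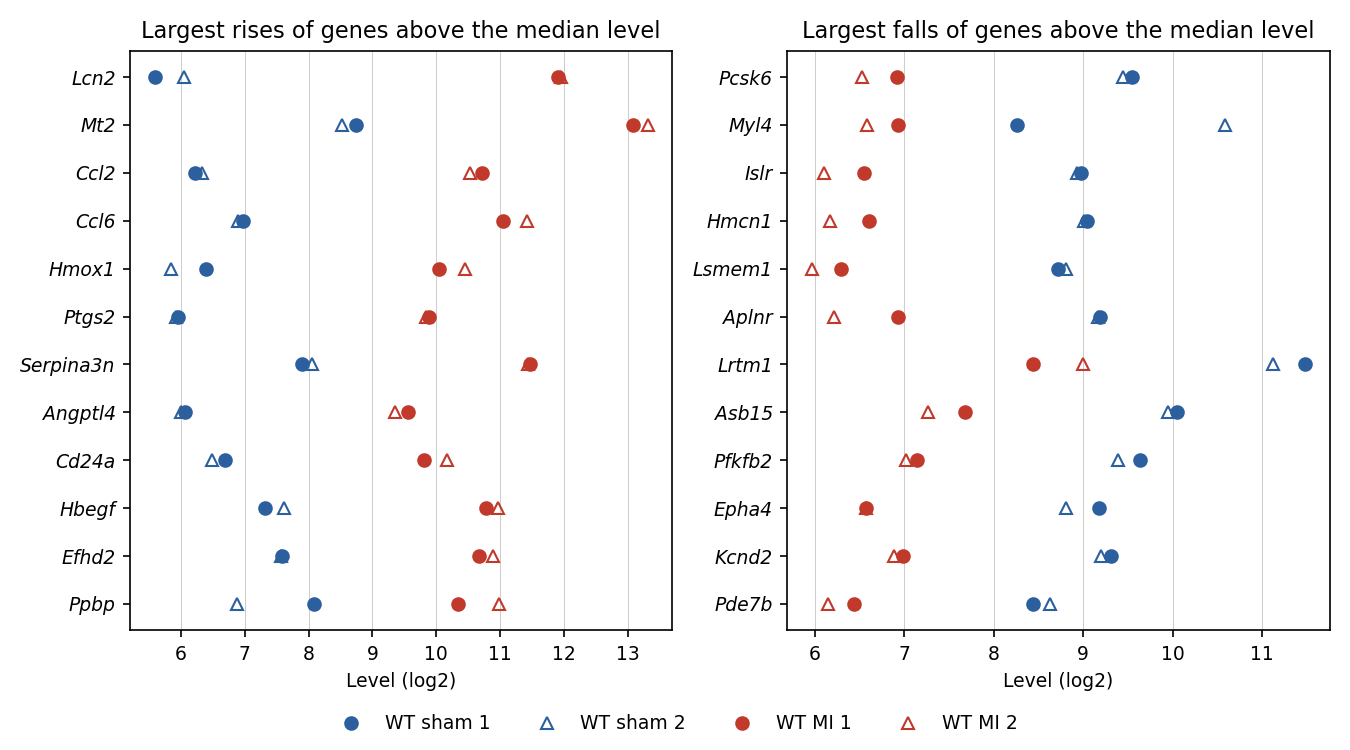
Log2 level in each of the 4 WT arrays (blue sham, red MI; filled circle replicate 1, open triangle replicate 2) of the 12 largest rises and 12 largest falls among genes above the median gene in both groups. The arrays of a group lie close together for most genes, while Ppbp (8.08 and 6.88) and Myl4 (8.26 and 10.58) are spread within the sham group.

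Among the 15 CXC chemokines measured, 7 rose and 2 fell, and those that rose with the largest folds bind Cxcr2, the neutrophil receptor. Cxcl2 read 3.25 and 4.40 in sham hearts and 9.07 and 9.91 in the MI arrays (log2 fold change 5.66, SE 0.37, limma adjusted p = 6.92e-06). Cxcl3 read 3.87 and 4.39 against 8.54 and 9.12 (log2 fold change 4.70), and Cxcl5 read 3.72 and 3.67 against 7.34 and 8.11 (4.02). Cxcl1 read 4.77 and 4.85 against 7.35 and 7.61 (2.67, adjusted p = 1.67e-05). All 4 separated the groups fully and had sham levels below the median gene. Ppbp, a platelet chemokine, rose 9.07-fold from sham levels of 8.08 and 6.88, and Pf4, also of platelets, rose 2.12-fold. Cxcl10, an interferon-induced attractant of T cells, rose by 2.55, reading 7.37 in MI replicate 1 and 6.20 in MI replicate 2. Cxcl9, also interferon-induced, went the other way and fell by 1.22 (8.30 and 7.87 against 7.23 and 6.50, adjusted p = 0.00384). Cxcl12, which retains cells that carry Cxcr4, fell by 0.72 (adjusted p = 0.0232), a call that was lost when any 1 of the 4 WT arrays was left out; the list then held 1 fall in each case other than without WT MI replicate 1. The log2 fold changes of the 6 others, short of the threshold, were 0.33 for Cxcl13, 0.16 for Cxcl15, -0.01 for Cxcl11, -0.08 for Cxcl14, -0.09 for Cxcl17 and -0.25 for Cxcl16. How far near-identical copies of these clustered genes share probe signal was not tested.

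CC chemokines, which draw monocytes and other leukocytes, rose in 11 of 20 members of the CC, XC and CX3C list and fell in 0, with a median of 0.44; 7 rose without WT sham replicate 1. A few genes had the largest rises. Ccl2, the main attractant of monocytes through Ccr2, read 6.22 and 6.33 in the sham arrays and 10.72 and 10.53 in the MI arrays (20.4-fold, log2 fold change 4.35, SE 0.12, limma adjusted p = 1.2e-07). Ccl6 read 6.98 and 6.90 against 11.04 and 11.42 (19.5-fold), and Ccl9 read 6.52 and 6.41 against 9.73 and 9.54 (8.99-fold). Ccl7, a second ligand of Ccr2, rose 9.55-fold. Ccl3, made by activated macrophages and neutrophils, read 4.05 and 3.88 against 8.53 and 9.42 (log2 fold change 5.01). Of 22 chemoattractant receptors 13 rose and 2 fell. Cxcr2 read 3.20 and 3.83 against 9.43 and 9.95, Ccr1, a receptor of Ccl3 and Ccl9, read 3.43 and 3.19 against 7.71 and 8.11, and the complement receptor C5ar1 read 6.08 and 5.92 against 8.15 and 7.93. Their groups did not overlap. The 2 that fell were the scavenging receptors Ackr3 (log2 fold change -0.64) and Ackr4 (-0.73), which take up chemokines without signalling through G proteins, whereas Ackr1 rose by 0.76 from a level near the low end.

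Receptors of injury signals and of bacterial products rose in 16 of 23 cases (median 1.18) and fell in 1. Tlr13, an endosomal receptor of ribosomal RNA, read 5.05 and 5.04 in the sham arrays and 8.58 and 8.61 in the MI arrays (11.7-fold, log2 fold change 3.55, SE 0.15, limma adjusted p = 8.36e-07). Cd14, which hands lipopolysaccharide to Tlr4, rose 8.87-fold, and the lectins Clec4e and Clec4d, which sense damaged cells, rose by 4.50 and 4.66 from levels between 3.21 and 3.75. The exception was Tlr3, the receptor of double-stranded RNA, which fell by 1.19 (6.77 and 6.87 against 5.97 and 5.30, adjusted p = 0.00249). In the interleukin-1 and interleukin-6 families 16 of 21 members rose (median 1.42) and 1 fell (2 without either KO sham array). Il1b read 4.98 and 4.91 against 8.76 and 8.95 (15.1-fold), and Il6 read 2.96 and 2.40 against 6.95 and 7.18 (log2 fold change 4.39). Osmr, the receptor of oncostatin M, read 8.07 and 7.97 against 9.99 and 9.98 (3.91-fold, adjusted p = 4.93e-06), and Socs3, the feedback inhibitor of this signalling, rose 8.74-fold. The fall in that family was Lifr, the receptor of leukaemia inhibitory factor, by 0.93 (8.45 and 8.54 against 7.73 and 7.40).

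Adhesion, clotting and complement genes followed in part. Of 18 endothelial and leukocyte adhesion genes 9 rose and 2 fell: Sele, the selectin of activated endothelium, rose 4.68-fold (4.98 and 5.20 against 7.44 and 7.19), while the junction proteins Jam2 and Jam3 fell by 1.05 and 0.87. Of 25 coagulation and fibrinolysis genes 14 rose and 2 fell. The urokinase receptor Plaur read 4.95 and 4.86 in the sham arrays and 8.84 and 8.99 in the MI arrays (16.1-fold, log2 fold change 4.01, SE 0.12, limma adjusted p = 1.2e-07). F10, coagulation factor X, rose 5.58-fold and F13a1, which cross-links fibrin, 2.60-fold. F3 (tissue factor, log2 fold change -0.42) and F8 (-0.63) fell. The call of F3 was lost without any 1 WT array and under cyclic loess, and that of F8 without WT MI replicate 2 or WT sham replicate 2. Among 25 complement genes 7 rose (28% against 12.3% of all genes). The 5 falls were near the share of all genes (20% against 15.8%), and fewer fell when either WT sham array was left out. C1s1, a protease of the classical pathway, fell by 1.53 (adjusted p = 0.00052), C7, of the membrane attack complex, by 1.42, and Cd59a, which blocks that complex on the cell surface, by 1.24 (11.55 and 11.41 against 10.33 and 10.15, adjusted p = 0.0003). The complement genes that rose included the leukocyte integrin Itgam, the receptor C5ar1 and properdin (Cfp, 1.23).

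Among cell marker lists, those of neutrophils and recruited monocytes lay higher after infarction. Neutrophil markers had a mean level of 4.30 and 4.37 in the sham arrays and 7.36 and 7.91 in the MI arrays, and 17 of 20 rose (median 4.01) and 0 fell. S100a8 read 3.82 and 3.44 against 9.32 and 10.34, and Csf3r, the receptor of the neutrophil growth factor G-CSF, read 4.84 and 4.81 against 8.81 and 8.77. The 3 that were not called were Mpo, Elane and Camp, granule genes made in the bone marrow by neutrophil precursors, with log2 fold changes of 0.19, 0.34 and 0.31; Ngp, of the same kind, rose by 1.20 (adjusted p = 0.0359), but not without WT MI replicate 2 or without either sham array. Recruited monocyte and macrophage markers had a mean of 5.77 and 5.75 against 8.36 and 7.78, and 14 of 18 rose (median 2.48). Arg1 read 4.55 and 5.08 against 10.30 and 9.81, and Ccr2 read 4.53 and 4.58 against 8.11 and 7.47. Resident cardiac macrophage markers had a mean of 7.43 and 7.40 against 7.45 and 7.23. Of 15, 2 rose (F13a1 and Pf4) and 3 fell (Folr2 by 1.31, Igf1 by 1.23, Gas6 by 1.03). These shares, 13.3% and 20%, were near those of all genes, 12.3% and 15.8%. T cell and NK cell markers had means between 3.93 and 4.33 in the 4 arrays, and 2 of 16 rose, 12.5% against 12.3% of all genes (0 without WT MI replicate 2, 1 without either WT sham or either KO MI array, 4 without either KO sham array). Of 11 B cell markers 1 rose and 1 fell, 9.09% each, below the shares of all genes. The rise was not called without WT MI replicate 2 or WT sham replicate 1. In whole-heart RNA a change in the number of cells of a type and a change in RNA per cell cannot be told apart.

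**Figure D3:**
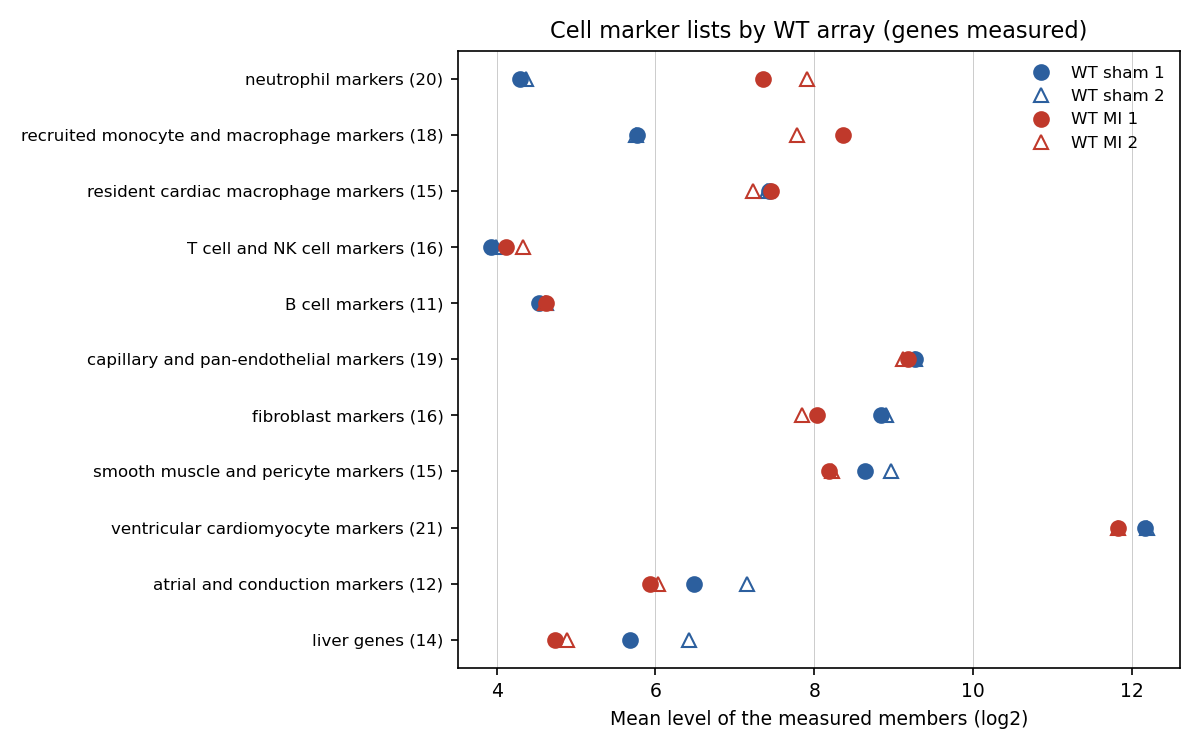
Mean log2 level of the measured members of 11 cell marker lists in each of the 4 WT arrays (blue sham, red MI; filled circle replicate 1, open triangle replicate 2; the number of genes is in brackets). Neutrophil and recruited monocyte markers lie higher in both MI arrays, fibroblast and ventricular cardiomyocyte markers lower, and atrial and liver genes differ between the sham arrays.

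Genes that build ribosomes rose together. Of 43 nucleolar ribosome assembly genes 33 rose (76.7% against 12.3% of all genes) and 0 fell, with a median of 0.74; leaving out 1 WT array left between 25 and 30 rises, and the median was 0.65 after median centring and 0.91 after cyclic loess. Nop58 and Nop56, core proteins of the particles that methylate ribosomal RNA, rose by large factors. Nop58 read 6.33 and 6.43 in the sham arrays and 8.37 and 8.20 in the MI arrays (3.74-fold, log2 fold change 1.90, SE 0.13, limma adjusted p = 9.54e-06). Nop56 read 8.17 and 8.29 against 9.77 and 9.87 (3.01-fold). Gnl3, nucleostemin, read 6.85 and 6.92 against 8.71 and 8.52 (3.32-fold), and Npm1, nucleophosmin, rose 2.73-fold. In each of the 4 both MI arrays lay well above both sham arrays. The promoters of this list held the E-box CACGTG, searched as these letters, in 3 of 38 cases (7.89%), against 7.04% of all promoters.

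Genes of other steps of protein synthesis rose as well. Of 30 translation initiation and elongation factors 16 rose and 0 fell (median 0.52), with 9 rises without WT sham replicate 1 and 10 without WT sham replicate 2. Eif4a1, the helicase that opens mRNA for the ribosome, read 11.33 and 11.44 in the sham arrays and 12.52 and 12.63 in the MI arrays (2.28-fold, log2 fold change 1.19, SE 0.13, limma adjusted p = 0.000163). Eif1a, which helps to find the start codon, rose 3.83-fold. Of 18 cytosolic aminoacyl-tRNA synthetase genes 8 rose (median 0.37), including Yars (1.99-fold) and Tars (1.95-fold); 4 rose without WT sham replicate 1 and 5 without WT MI replicate 2 or after median centring. Of 14 chaperonin and prefoldin subunits, which fold actin and tubulin, 7 rose, including Cct5 (1.95-fold) and Cct3 (1.85-fold), with 4 rises without WT sham replicate 1 or WT MI replicate 2. Supply genes rose as well: 10 of 18 polyamine and one-carbon metabolism genes rose and 0 fell (1 without WT sham replicate 1). Mthfd1l, a mitochondrial folate enzyme, rose 4.30-fold, to 6.97 and 6.91, and Odc1, the first enzyme of polyamine synthesis, read 7.92 and 8.03 against 9.46 and 9.79 (3.14-fold). Amino acid transporters were split, with 11 rises and 5 falls among 24. Slc7a5 and its partner Slc3a2, which form the exchanger of large neutral amino acids, rose 5.71-fold and 2.87-fold, and Slc7a11, the cystine importer, rose by 4.02 from 3.36 and 3.53. Slc38a3, a glutamine transporter, fell by 1.44 (10.13 and 9.94 against 8.55 and 8.65), and Slc6a8, which imports creatine into muscle, fell by 0.91.

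**Figure D4:**
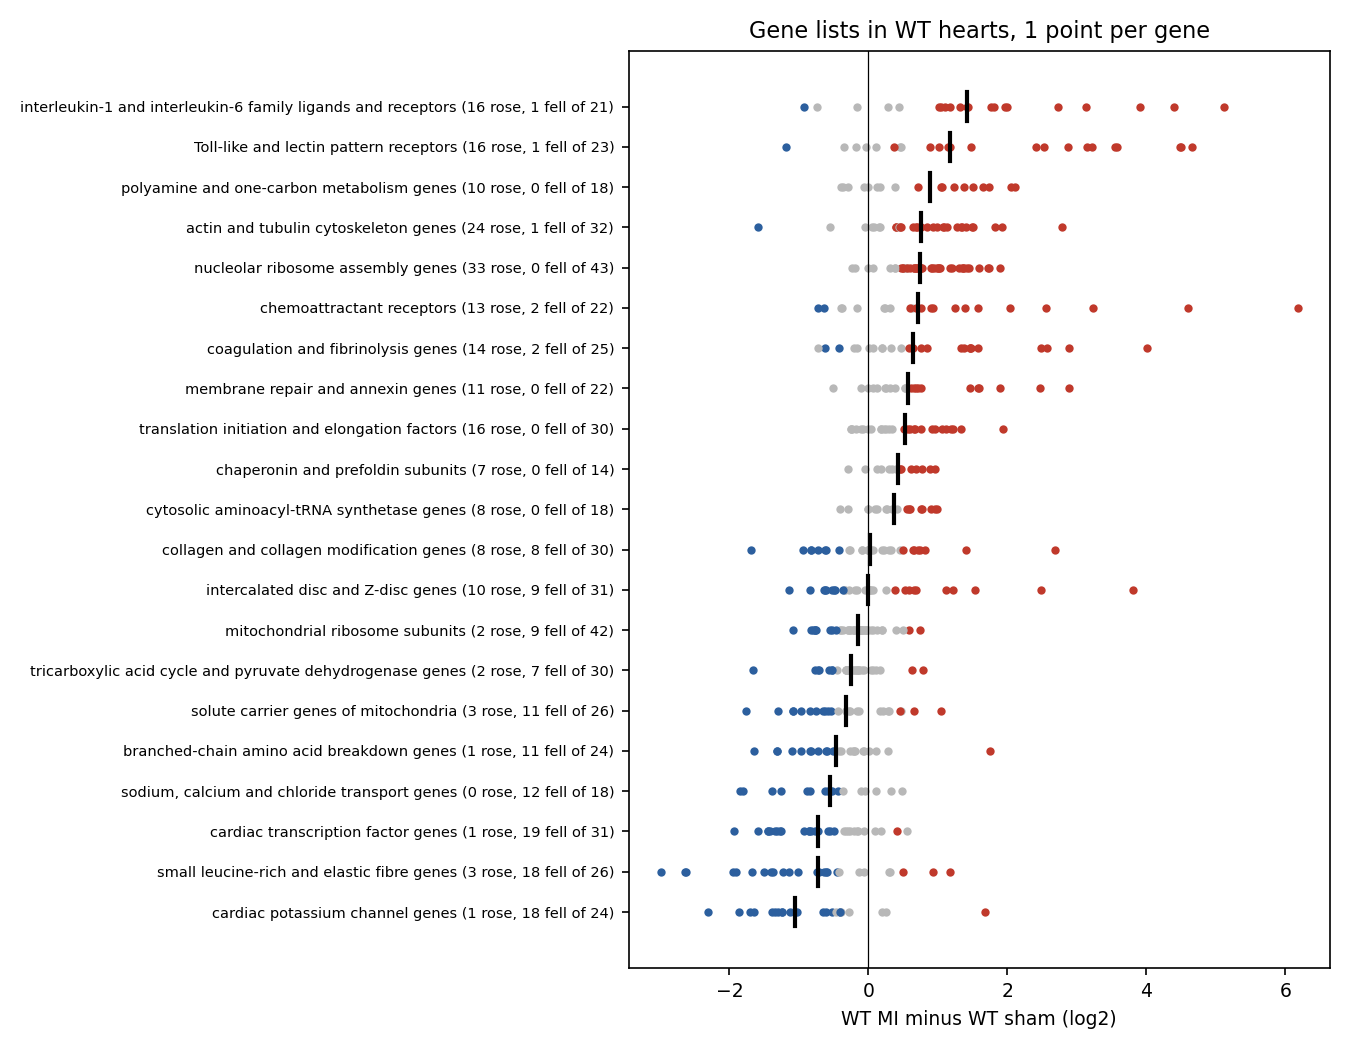
WT MI minus WT sham (log2) of each measured gene in 21 lists, 1 point per gene, red where it rose, blue where it fell and grey where it was not called; the black bar is the list median and the counts stand beside each name. Lists of innate immunity, nucleolus and cytoskeleton lie to the right of 0, and those of potassium channels, elastic fibre proteins and cardiac transcription factors to the left.

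Cytoskeleton and membrane repair genes rose in the same hearts. Of 32 actin and tubulin cytoskeleton genes 24 rose and 1 fell (median 0.75), with 2 falls without WT MI replicate 2. Tubb6, a beta tubulin, read 7.15 and 7.10 in the sham arrays and 9.87 and 9.94 in the MI arrays (6.86-fold, log2 fold change 2.78, SE 0.16, limma adjusted p = 3.24e-06). Actn1, the non-muscle actinin, rose 3.79-fold. The one fall was Myl9, the smooth muscle myosin light chain, by 1.59. Of 22 annexin and membrane repair genes 11 rose and 0 fell (1 without either KO sham array). Anxa2 read 8.07 and 8.01 against 10.98 and 10.87 (7.39-fold), its partner S100a10 rose 2.74-fold, and Anxa7 read 7.46 and 7.70 against 9.11 and 9.18 (2.96-fold). Both groups were tight in these genes. At the Z-disc and intercalated disc, where sarcomeres are anchored and muscle cells joined, 10 of 31 genes rose and 9 fell; leaving out 1 WT array left 3 to 5 falls. The strain-responsive genes rose: Ankrd2 read 4.99 and 5.39 against 8.92 and 9.08 (14.0-fold), Fhl1 read 9.65 and 9.60 against 12.07 and 12.16 (5.62-fold), and Xirp1 and Xirp2 rose 2.88-fold and 2.31-fold. Ctnna3, a catenin of the muscle junction, fell by 1.14, and Ldb3, a Z-disc adaptor, by 0.84. The desmosomal genes Dsp, Dsc2 and Dsg2 fell by 0.62, 0.64 and 0.48, and these calls were lost without WT MI replicate 1 or without either WT sham array. The call of Dsp was also lost without WT MI replicate 2. That of Dsg2 was also lost under cyclic loess, with the WT arrays alone and without either KO MI array.

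Ion channel genes fell in most cases. Of 24 cardiac potassium channel genes 18 fell (75% against 15.8% of all genes) and 1 rose, with a median of -1.05, and 13 to 15 fell when 1 WT array was left out. Kcnd2 and its subunit Kcnip2 carry the fast transient outward current of the mouse ventricle. Kcnd2 read 9.31 and 9.20 in the sham arrays and 6.99 and 6.89 in the MI arrays (4.97-fold lower, log2 fold change -2.31, SE 0.18, limma adjusted p = 2.09e-05). Kcnip2 read 9.61 and 9.55 against 7.59 and 7.84 (3.65-fold lower). Kcnj3, a subunit of the acetylcholine-gated channel, read 9.89 and 9.80 against 8.19 and 8.20. Abcc9, a subunit of ATP-sensitive channels, read 11.22 and 11.23 against 10.01 and 9.85. No array of one group reached the other group in these 4 genes. The one rise was the regulatory subunit Kcne4, which read 4.42 and 4.53 against 6.23 and 6.07. Of 18 sodium, calcium and chloride transport genes 12 fell and 0 rose (5 falls without WT sham replicate 2, and 1 rise without either KO sham array). Cacna1c, the L-type calcium channel that triggers contraction, fell by 1.39 (10.49 and 10.27 against 8.94 and 9.03, adjusted p = 6.92e-05), and the sodium channel subunit Scn4b by 1.85 (8.05 and 7.29 against 5.86 and 5.77). Downstream of beta-adrenergic and muscarinic receptors 9 of 21 genes fell (42.9% against 15.8% of all genes). The 3 rises were near the share of all genes (14.3% against 12.3%). They included Prkar1a, whose call was lost when any 1 WT array was left out. The phosphodiesterases Pde4a and Pde7a, which degrade cyclic AMP, fell by 1.70 and 1.55 and the adenylyl cyclase Adcy5 by 1.08, while the receptor-silencing genes Arrb2 and Grk5 rose by 1.29 and 0.90.

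Transcription factors that maintain the heart muscle programme fell in 19 of 31 cases, with a median of -0.73 and 16 to 19 falls when 1 WT array was left out. Prox1 read 9.35 and 9.45 in the sham arrays and 7.53 and 7.39 in the MI arrays (3.84-fold lower, log2 fold change -1.94, SE 0.13, limma adjusted p = 1.03e-05). Irx4, a factor restricted to the ventricles, read 8.75 and 8.80 against 7.45 and 7.55 (2.42-fold lower). Factors of oxidative metabolism also fell: Ppargc1a, the coactivator of mitochondrial genes, read 10.52 and 10.48 against 9.07 and 9.28, and Ppara, the receptor that drives fatty acid oxidation, read 9.42 and 9.26 against 7.89 and 7.96. The thyroid hormone receptor Thra read 10.51 and 10.52 against 8.98 and 8.87 (3.01-fold lower), and the mineralocorticoid receptor Nr3c2 read 7.76 and 7.65 against 5.93 and 5.80 (3.58-fold lower). In all 6 genes the groups were well apart. Irx3 was the one member called in the other direction (log2 fold change 0.41, adjusted p = 0.0455), and no longer so when any 1 WT array or either KO MI array was left out, while 2 rose without either KO sham array. Among thyroid, steroid and nuclear receptor genes as a list, 13 of 27 fell and 2 rose (8 falls without WT MI replicate 2 or WT sham replicate 1); the rises were Rara and Vdr.

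Of 24 genes of branched-chain amino acid breakdown 11 fell and 1 rose (median -0.46). Ppm1k, the phosphatase that activates the rate-limiting dehydrogenase, read 9.67 and 9.50 in the sham arrays and 7.83 and 8.04 in the MI arrays (3.14-fold lower, log2 fold change -1.65, SE 0.18, limma adjusted p = 0.000172). Bckdhb, a subunit of that enzyme, fell by 1.31. The rise was Bcat1, the cytosolic aminotransferase, by 1.75 (4.98 and 5.25 against 7.02 and 6.71). In the tricarboxylic acid cycle and pyruvate dehydrogenase list 7 of 30 genes fell (23.3% against 15.8% of all genes) and 2 rose, and regulators were among both. Pdp2, a phosphatase that activates pyruvate dehydrogenase, fell by 1.66 (7.16 and 6.93 against 5.40 and 5.39), and the kinase Pdk4, which inactivates it, rose by 0.79 (11.72 and 11.74 against 12.56 and 12.49, adjusted p = 0.0425), a call lost when any 1 WT array was left out. That list was sensitive: it held 14 falls with an intensity trend, fewer without either WT sham array and more without either KO sham array. Its rises were fewer when any 1 WT array or either KO MI array was left out. Of 26 mitochondrial carriers 11 fell and 3 rose (1 without WT MI replicate 2 or either WT sham array), and the falls included the coenzyme A carrier Slc25a42 (8.99 and 9.18 against 7.24 and 7.41, 3.39-fold lower). The glycolytic regulator Pfkfb2, whose cardiac form answers to insulin and adrenaline, read 9.63 and 9.39 against 7.14 and 7.02 (5.40-fold lower, adjusted p = 6.74e-06). Triglyceride genes went both ways, with 6 rises and 8 falls among 24 (5 falls without WT sham replicate 1): the droplet genes Hilpda and Plin2 rose 6.28-fold and 4.27-fold, and Lpin1, a phosphatidate phosphatase, fell by 1.34.

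Of 21 ventricular cardiomyocyte markers, which span sarcomere, calcium handling and transcription factor genes, 8 fell and 0 rose (median -0.26, lowest -1.28 for Irx4), and 5 fell without WT MI replicate 2, WT sham replicate 1 or WT sham replicate 2. The falls included Mybpc3 (log2 fold change -0.86), Ttn (-0.71, not called without WT MI replicate 2) and Pln (-0.58), while Tnnt2 (0.04), Actc1 (0.00) and Myl2 (-0.07) were not called. The neutrophil and monocyte marker levels given above moved with the falls in heart muscle genes. Their part in those falls was not tested.

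Fibroblast markers lay below 0 in all 16 cases and 12 fell, with a median of -0.78 and a mean level of 8.84 and 8.90 in the sham arrays against 8.04 and 7.84 in the MI arrays. Islr, a secreted leucine-rich protein, read 8.98 and 8.93 against 6.55 and 6.10 (6.20-fold lower, log2 fold change -2.63, SE 0.15, limma adjusted p = 3.99e-06). Dpt, dermatopontin, read 10.66 and 10.76 against 9.05 and 9.03 (3.18-fold lower), and Htra3, a secreted protease, read 8.33 and 8.35 against 6.73 and 6.65. Col1a1 (-0.26), Col3a1 (-0.09) and Pdgfra (-0.10) were not called. Small leucine-rich and elastic fibre genes fell in 18 of 26 cases and rose in 3 (median -0.73). Fmod, fibromodulin, read 7.31 and 7.48 against 4.93 and 4.57 (6.24-fold lower), Aspn, asporin, read 9.74 and 9.74 against 7.74 and 7.94, and Hmcn1, hemicentin, read 9.04 and 9.01 against 6.61 and 6.17. Proteins of that list organise mature fibres. In the other direction Ecm1 (1.18), Mfap5 (0.93) and Emilin1 (0.50) rose, the last not without WT MI replicate 1, WT MI replicate 2 or WT sham replicate 1.

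Collagen genes went both ways, with 8 rises and 8 falls among 30 (26.7% each, against 12.3% and 15.8% of all genes). Both counts were lower, and nearer the shares of all genes, without either WT sham array. Fewer rose without WT MI replicate 1. Without WT MI replicate 2 fewer fell and more rose. Col14a1 fell by 1.69, Col6a2 by 0.83 and Col6a1 by 0.73. The basement membrane collagen Col4a1 rose by 0.82, and Lox, which cross-links collagen and elastin, rose 6.45-fold (5.72 and 6.28 against 8.77 and 8.61, limma adjusted p = 4.08e-05). Provisional matrix genes rose in 10 of 24 cases and fell in 5 (3 falls without WT MI replicate 1 or WT sham replicate 2). Fn1, fibronectin, read 9.20 and 9.41 in the sham arrays and 11.74 and 11.34 in the MI arrays (4.70-fold, log2 fold change 2.23, SE 0.16, adjusted p = 1.4e-05). Thbs1, thrombospondin 1, read 8.23 and 8.94 against 11.82 and 11.65 (8.89-fold), and Cd44, a hyaluronan receptor, read 5.55 and 5.79 against 8.50 and 8.21 (6.44-fold). The falls included Vtn, vitronectin (-1.41), and Sparcl1 (-0.88). Of 15 smooth muscle and pericyte markers 9 fell and 1 rose (4 falls without WT MI replicate 1, 5 without WT sham replicate 2; 0 rises without WT MI replicate 1 or WT sham replicate 1, 2 without either KO sham array). The falls included Myh11 by 1.84 (7.77 and 8.50 against 6.17 and 6.42) and Rgs5 by 0.85. Capillary and pan-endothelial markers had a median of 0.06. Of 19, 4 rose (21.1% against 12.3% of all genes), Esam and Car4 among them, and 3 fell (15.8%, the same share as of all genes). Fewer rose when WT MI replicate 2 or either WT sham array was left out. Pecam1 (0.06) and Cdh5 (-0.01), which define the endothelium, were not called. The apelin receptor Aplnr fell 6.10-fold (9.19 and 9.17 against 6.93 and 6.21, adjusted p = 8.07e-05), Kdr, the main receptor of VEGF-A, fell by 1.28 and Tek, the angiopoietin receptor, by 0.93.

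Further single genes led the falls. Pcsk6, a proprotein convertase, read 9.54 and 9.44 in the sham arrays and 6.92 and 6.53 in the MI arrays (6.81-fold lower, log2 fold change -2.77, SE 0.15, limma adjusted p = 2.85e-06). Asb15, a muscle protein of the ankyrin and SOCS box family, read 10.05 and 9.95 against 7.68 and 7.26 (5.77-fold lower), and Lrtm1, a leucine-rich membrane protein, fell 5.97-fold from 11.48 and 11.12. The groups did not overlap in any of the 3, as the rule that picked them required. The integrin subunit Itgb6 read 8.85 and 8.91 against 5.81 and 4.74, and Lgi1, a secreted leucine-rich protein, read 8.44 and 8.21 against 4.91 and 3.42, where MI replicate 2 was close to the low end of the array.

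Several large falls rested on sham arrays that differed from each other. Alb, which encodes the liver protein albumin, read 9.11 and 10.46 in the sham arrays and 3.65 and 3.90 in the MI arrays, and Car3, a carbonic anhydrase of fat and skeletal muscle, read 7.51 and 8.97 against 4.32 and 4.66. Of 14 liver genes 5 fell and 1 rose, and the mean level was 5.68 and 6.42 against 4.74 and 4.89. In the KO sham arrays the mean of these genes was 6.23 and 4.43. KO sham replicate 2, without infarction, thus lay below both WT MI arrays. The fall count was 1 without WT MI replicate 1, WT MI replicate 2 or WT sham replicate 2, 3 without either KO MI array, 9 without either KO sham array and 8 after median centring. Atrial and conduction markers had means of 6.49 and 7.15 against 5.93 and 6.03, with 6 falls and 1 rise among 12. Myl4, the atrial myosin light chain, fell (8.26 and 10.58 against 6.93 and 6.58, limma adjusted p = 0.0211), but not without WT MI replicate 1, WT MI replicate 2 or WT sham replicate 2, and Myl7 was not called (6.09 and 8.80 against 4.64 and 4.91, adjusted p = 0.0717). Nppa, the natriuretic peptide gene of atrial muscle and of stressed ventricles, was the rise in that list (10.19 and 11.06 against 12.27 and 12.25, log2 fold change 1.64). The part of atrial or liver transcripts in other falls was not tested.

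The arrays of a group also differed in ways that touch single results. Between the WT MI arrays 63 genes differed by more than 1, of which 43 were higher in replicate 1. Those included interferon-induced genes and monocyte genes: Ifi209 read 7.53 in replicate 1 and 5.06 in replicate 2, Ifit3 8.71 and 7.07, Plac8 6.83 and 4.64, and Ms4a4c 7.73 and 5.71. Uty, a gene of the Y chromosome, was also among them, with a difference of replicate 2 minus replicate 1 of -1.51. Sex is not given in the labels, and whether the arrays differ in it was not tested. Interferon-induced genes did not all go that way, since Ifi202b was higher in replicate 2, by 2.15. Also higher in replicate 2 were the neutrophil genes Retnlg (8.24 and 9.91) and Ngp (3.32 and 4.83). Between the WT sham arrays 42 genes differed by more than 1, of which 38 were higher in replicate 2. Beside Myl7 and Myl4 they included Ccn3 (5.95 and 7.97), the integrin subunit Itga8 (5.80 and 7.69) and Rbp4, a carrier of retinol (5.10 and 6.96). These genes were chosen for their differences, which carry no test.

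**Figure D5:**
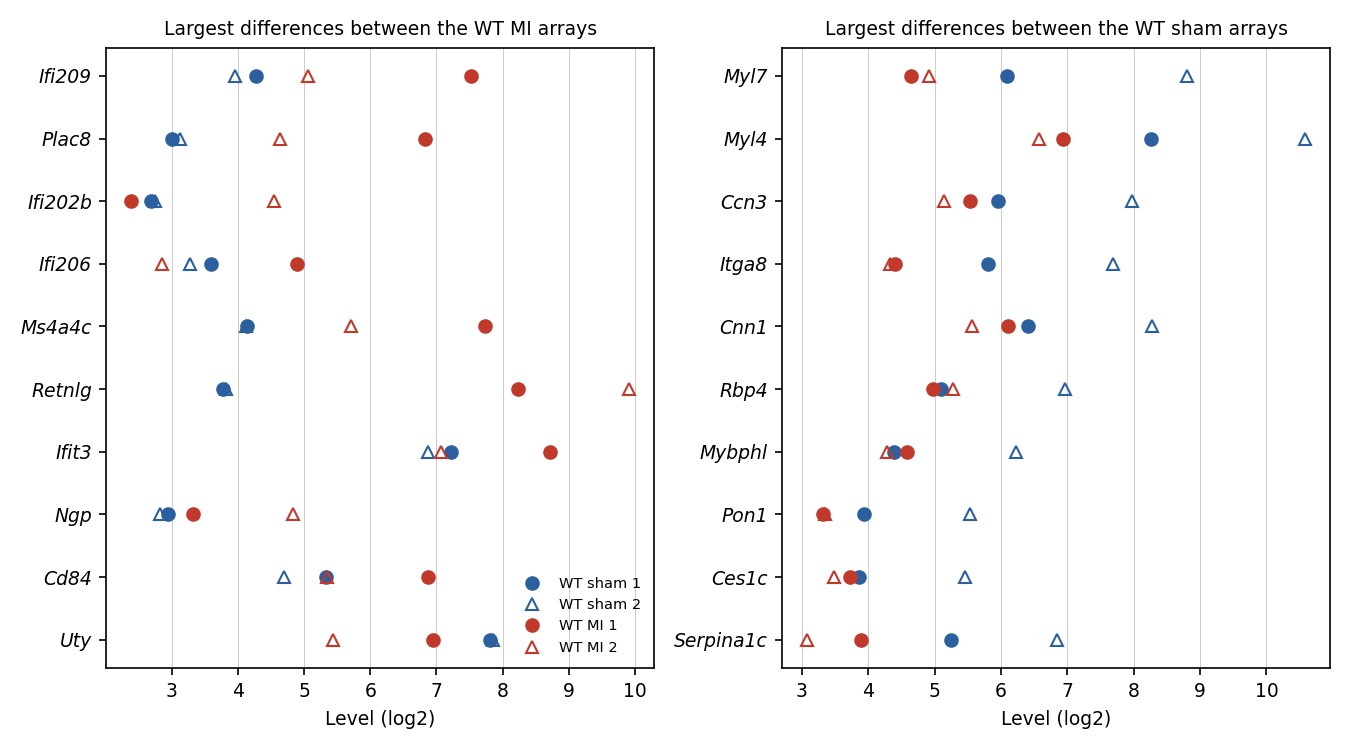
Log2 level in the 4 WT arrays (blue sham, red MI; filled circle replicate 1, open triangle replicate 2) of the 10 genes with the largest difference between the MI arrays (left) and between the sham arrays (right). The 10 sham genes are all higher in sham replicate 2, and most of the MI genes are higher in MI replicate 1.

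The same contrast in MAFbx KO hearts is given beside it. There 2098 genes rose (10.5%) and 2044 fell (10.3%). The contrasts use different arrays, although they share 1 estimate of the spread. Rises called in both genotypes numbered 1595, which is 64.9% of the WT rises and 76% of the KO rises, and shared falls numbered 1719, which is 54.5% of the WT falls and 84.1% of the KO falls. By the limma test of the difference between the responses 0 genes were called (0%), with 1637 at an unadjusted p under 0.05, so no gene is called particular to WT hearts. Neutrophil markers had a median log2 fold change of 4.01 in WT and 2.74 in KO, potassium channels -1.05 and -0.67, fibroblast markers -0.78 and -0.28, and nucleolar genes 0.74 and 0.72. Lists with the larger median in KO included actin and tubulin cytoskeleton genes (0.75 in WT and 1.07 in KO), tRNA synthetases (0.37 and 0.63), collagen genes (0.02 and 0.37) and provisional matrix genes (0.36 and 0.63). These differences between genotypes were not tested for the lists. With an intensity trend in the model 4 genes passed that test, Snora31, Cd59a, Nppa and Plscr1, singled out after their values were seen. Cd59a read 9.37 and 9.77 in KO sham and 9.88 and 9.91 in KO MI, against the WT fall given above, with an adjusted p of 0.161 for the difference in the model as used here. Nppa read 8.11 and 8.52 in KO sham and 12.36 and 12.45 in KO MI (adjusted p = 0.161). Cyclic loess left 1 gene past the threshold, Snora31. Nppa, Cnn1 and Itga8 passed in the fit without WT sham replicate 1, where replicate 2 alone stands for WT sham. In these genes that array read higher than WT sham replicate 1 by 0.87, 1.88 and 1.89.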

How the data were processed

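Expression was measured on 8 arrays, in 4 groups of 2 by genotype and condition in the labels; replicate numbers came from the titles. The deposited values are on a log2 scale; per the submitters' processing notes the authors used Expression Console and RMA, with no version given. RMA as commonly run includes quantile normalization, which would reduce a shift shared by most genes. Detection was not tested, and there was no filter on low values.

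Of 35556 probes, 21789 were paired with 1 gene by the platform annotation, 1621 with several and 12146 with none; 21698 of the first matched a RefSeq gene table (GRCm38.p6) by Entrez ID and 91 did not. The probe with the highest mean over the 8 arrays stood for each of 19938 genes, which decided between probes for 999.

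The fit used limma 3.58.1 (R 4.3.3): all 8 arrays, 4 group means, 4 residual and 5.57 prior degrees of freedom, two-sided, Benjamini-Hochberg over all genes, threshold 0.05. The smallest p of an exact permutation test of 2 against 2 arrays is 0.333, so no such test is reported. Code was tested on simulated data. Figures used matplotlib 3.10.9 in Python 3.11.15.

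The comparison and the gene lists were chosen with earlier results of these data known. Lists are described by counts and medians, with no set test. Named genes are, by rule, the 12 largest rises and falls without overlap between arrays, the 12 largest above the median gene in both groups, up to 5 members per list with the smallest p and any member called against the list's majority, Fbxo32, all CXC chemokines, and the 10 largest differences between arrays of a group. Other genes were named after their values were seen: list members given as not called, Plscr1 and Snora31. Clone, predicted and Riken names are counted only (271 changed genes). Promoters were available for 15614 genes. Alternatives were weights per array, a trend of the variance with intensity, a robust prior, a test without the lowest 33.3% of genes, the mean of a gene's probes, the WT arrays alone, cyclic loess, median centring, a 2-fold minimum, the replicate number as a block and leaving out each array. An array left alone in its group was taken to vary as the remaining groups do. The numbers do not pair the arrays: same-numbered arrays of different groups deviated from their group means with correlations between -0.187 and 0.156.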

Additional observations from a re-analysis of the deposited data

Results flagged for a closer look

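Probes outside the comparison, those that the platform annotation does not list, carried signal too. In a fit of all 35556 probes 6375 changed between WT MI and WT sham (17.9%), and 1147 of these belonged to the 12146 probes without a listed gene, 661 higher and 486 lower in WT MI by limma at an adjusted p under 0.05. Changes of at least 4-fold were seen in 35 upward and 35 downward among them. They are unnamed here, and what they measure was not tested.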

How the results depend on the processing

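The naming rule picked 438 genes, of which 422 were called; the direction of these 422 held under each of 17 alternatives that tested them, in which the 2-fold minimum is not counted. Of the 415 that all 17 tested, 323 passed the threshold under every one; the other 7 were not tested without the lowest genes. A 2-fold difference was reached by 269 of the 422. Against 2457 rises and 3152 falls, median centring left 1580 rises, and a 2-fold minimum left 773 rises and 897 falls. Leaving out 1 array gave between 1449 and 2884 rises and between 1954 and 3599 falls: the fewest rises came without WT sham replicate 1 (1449 rises, 2008 falls), the fewest falls without WT sham replicate 2 (1508 and 1954), and the most without either KO sham array (2884 and 3599). For the difference between the WT and KO responses, 0 as reported, cyclic loess called 1 gene, an intensity trend 4, and leaving out 1 array 0 to 3. With the replicate number as a block 2289 genes rose and 2959 fell, 5157 of them among the 5609 called, and 14 of the 422 lost their call; the numbers do not pair the samples. The number of the 422 that lost their call was highest without WT sham replicate 2 (75) and without WT sham replicate 1 (70), then 63 and 52 without WT MI replicate 2 and 1, 30 after median centring and 27 after cyclic loess. With 2 arrays a group, the number of arrays limits the precision, and changes from or to levels near 3.045, the 10th percentile of genes, are bounded by the low end of the array.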

Other observations

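Growth factor and developmental signalling genes included further large differences. Of 49 growth factors and receptors of the EGF, FGF, PDGF and VEGF families 9 rose (18.4% against 12.3% of all genes) and 16 fell (32.7% against 15.8%). Pgf, placental growth factor, a ligand of Flt1, had levels of 5.53 and 5.21 in sham hearts and 9.59 and 9.56 after infarction (18.4-fold, SE 0.15 on the log2 scale, limma adjusted p = 3.8e-07). Fgf23, known as a hormone of phosphate balance made in bone, read 5.78 and 5.44 against 7.48 and 7.50 (3.69-fold). Erbb4, the neuregulin receptor of heart muscle, fell by 1.21 (7.66 and 7.72 against 6.43 and 6.55). Of 49 Wnt, BMP and Notch pathway genes 20 fell (40.8%) and 6 rose (12.2%), with 12 falls without WT sham replicate 2 and 2 rises without WT sham replicate 1. Sfrp1, a secreted Wnt antagonist, read 8.26 and 8.13 against 5.91 and 5.30 (limma adjusted p = 2.57e-05), and Wnt5a read 6.95 and 7.14 against 5.23 and 4.63 (4.33-fold lower). Both separated the groups fully.

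Regulators of the clock, of chromatin and of stress signalling moved in part. Of 17 circadian clock genes 5 rose (29.4% against 12.3% of all genes) and 4 fell (23.5% against 15.8%). Both counts were lower, and nearer the shares of all genes, when any 1 WT array was left out. Bhlhe40, a repressor of clock genes, rose 3.23-fold and Clock fell by 0.80, while Nr1d1 (0.21) and Dbp (0.61) were not called. Time of day at tissue collection is not given in the labels. Of 34 histone and chromatin modifiers 12 fell and 2 rose (7 falls without WT sham replicate 2; 0 rises without WT MI replicate 1 or WT sham replicate 1, 1 without WT MI replicate 2 or WT sham replicate 2). Tet1, which oxidises 5-methylcytosine, read 7.75 and 7.96 against 5.63 and 6.11 (3.96-fold lower, limma adjusted p = 3.39e-05), and Hdac11 fell by 1.30. Among 33 antioxidant and metallothionein genes 11 rose and 8 fell (17 rises after cyclic loess, and fewer falls without any 1 WT array). Beside Mt1, Mt2 and Hmox1, the glutathione reductase Gsr rose 3.24-fold, whereas the transferases Gsta3 and Gstt1 fell by 1.12 and 1.15. The superoxide dismutases Sod1 (-0.44) and Sod2 (-0.49) were called as falls. The call of Sod1 was lost without any 1 WT array and under cyclic loess. That of Sod2 was lost without WT MI replicate 2 or without either WT sham array. Of 27 MAP kinase feedback genes 15 rose, including Gadd45g (7.59-fold, 5.92 and 6.30 against 8.83 and 9.24), and 3 fell (1 without WT MI replicate 1 or WT sham replicate 2, 0 without WT sham replicate 1).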
